A study of Homo sapiens with 6 samples.

Results

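The genes described here encode the secreted signalling proteins of the WNT, FGF, BMP, GDF and hedgehog families. They were taken by a rule on gene symbols, chosen with earlier results of these data known. The 4 peak lists together name 18086 genes, and 42 of them matched: 11 WNT, 16 FGF, 6 BMP and 7 GDF genes and the hedgehog genes DHH and IHH. RefSeq holds 23 further genes with such symbols (8 WNT, 6 FGF, 5 BMP, 3 GDF and 1 hedgehog gene), which had no line in the lists used here and were not analysed here. The cells were HL-60, a human promyelocytic leukaemia line labelled as myeloblast, either parental or JMJD3 KO (knocked out for the H3K27 demethylase JMJD3, gene KDM6B), both grown in DMEM with serum and with no treatment named. The mark H3K4me3, found at active or poised promoters, and the mark H3K27me3, placed by Polycomb, were each profiled by chromatin immunoprecipitation and sequencing in 1 library per genotype. The sources used here do not give how the knockout was made or whether it is 1 clone. The antibody label of the H3K27me3 libraries names H3K4me3, so their mark was taken from the title.

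With 1 library per group every difference below lacks a replicate check, and read depth is not in the lists. KDM6B had 10 promoter H3K4me3 peaks (3041 bp) in the parental list and 4 (710 bp) in the knockout list, which says nothing about the protein. Of 11 granulocyte lineage markers, 7 had promoter H3K4me3 in both lists, that of MPO being the widest in parental cells, and CTSG had it in parental cells only, while ELANE, AZU1 and LYZ had none. Of 7 epithelial and stromal markers 0 had it.

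WNT proteins are lipid-modified ligands that bind Frizzled receptors and LRP coreceptors and can stabilise beta-catenin. Secreted FGF proteins bind receptor tyrosine kinases with heparan sulfate or Klotho as cofactor, BMP and GDF proteins belong to the TGF-beta family and mostly signal through SMAD proteins, and hedgehog proteins bind Patched and release Smoothened. In development such ligand genes are silent in most cells and many are Polycomb targets. The rule also took in genes that encode no such ligand: FGF11 to FGF14 encode intracellular proteins that bind sodium channels, and BMP1 encodes a metalloprotease that processes collagen and the BMP antagonist chordin.

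The promoters with a parental H3K4me3 peak over the start site are shown first, with those of the genes with the widest promoter H3K27me3. Each line gives the 250 bases before the RefSeq start in GRCh38.p14, 5′ to 3′ on the gene's strand, with every CG dinucleotide in capitals. BMP6, FGF5 and GDF9 were the members whose transcription start site (TSS) lay inside a parental H3K4me3 peak. FGF14 and BMP5 had the widest promoter H3K27me3 (in parental cells and in knockout cells, respectively). The BMP5 peak was centred 4846 bp upstream of the TSS and did not span it, nor did any parental peak span that of FGF14. Their windows need not lie under the mark.
BMP6: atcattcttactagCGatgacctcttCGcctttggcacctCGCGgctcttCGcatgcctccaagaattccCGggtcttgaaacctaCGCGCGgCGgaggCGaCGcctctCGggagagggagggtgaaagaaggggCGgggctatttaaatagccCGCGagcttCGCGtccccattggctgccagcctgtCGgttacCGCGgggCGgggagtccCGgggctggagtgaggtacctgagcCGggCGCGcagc
FGF5: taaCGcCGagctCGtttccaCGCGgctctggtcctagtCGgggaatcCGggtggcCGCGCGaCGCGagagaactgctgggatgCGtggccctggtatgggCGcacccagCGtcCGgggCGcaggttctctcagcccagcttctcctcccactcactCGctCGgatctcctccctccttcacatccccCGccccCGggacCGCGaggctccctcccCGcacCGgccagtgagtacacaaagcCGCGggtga
GDF9: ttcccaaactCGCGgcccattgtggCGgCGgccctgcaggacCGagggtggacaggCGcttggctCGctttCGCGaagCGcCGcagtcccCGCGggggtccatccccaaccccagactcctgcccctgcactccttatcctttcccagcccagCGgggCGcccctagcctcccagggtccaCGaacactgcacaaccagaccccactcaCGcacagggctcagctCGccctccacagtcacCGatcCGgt
FGF14: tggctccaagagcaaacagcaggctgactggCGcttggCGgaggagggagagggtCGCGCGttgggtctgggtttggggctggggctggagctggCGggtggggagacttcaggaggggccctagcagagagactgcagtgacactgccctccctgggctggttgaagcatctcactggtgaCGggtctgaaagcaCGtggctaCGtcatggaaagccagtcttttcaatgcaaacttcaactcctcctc
BMP5: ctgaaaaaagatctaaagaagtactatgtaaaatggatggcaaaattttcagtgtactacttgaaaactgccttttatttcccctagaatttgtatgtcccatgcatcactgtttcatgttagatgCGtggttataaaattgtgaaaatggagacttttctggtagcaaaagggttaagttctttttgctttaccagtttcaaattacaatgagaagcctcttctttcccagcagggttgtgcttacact
The GRCh38 windows lie at chr6:7725849-7726098 on the plus strand for BMP6, chr4:80266338-80266587 on the plus strand for FGF5, chr5:132866652-132866901 on the minus strand for GDF9, chr13:102402444-102402693 on the minus strand for FGF14 and chr6:55875591-55875840 on the minus strand for BMP5. All peak and TSS positions elsewhere are hg19, and whether the RefSeq start is the one used in the lists was not tested.

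The windows of BMP6, FGF5 and GDF9 held 26, 27 and 20 CG dinucleotides, that of FGF14 held 9 and that of BMP5 held 1. Their G+C content was 64.4%, 68.8%, 68.4%, 60.8% and 35.6%. The letters GGGCGG, read on both strands, were found in the windows of BMP6 and FGF5 and in 42.3% of all 27305 promoter windows in the table. TATAAA was found in that of BMP5 (11.1% of all windows) and CACGTG in that of FGF14 (6.49%). The table held 31 of the 42 members, and 4 of the 9 with promoter H3K4me3 in both lists, so a comparison of CG content between groups of members was void. The windows shown do not stand for their groups. The number of CG dinucleotides ran from 9 to 31 at 11 members with promoter H3K4me3 in either list. At 3 members with promoter H3K27me3 and no H3K4me3 it ran from 1 to 25.

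Promoter H3K4me3 was listed at 17 of the 42 ligand genes. A peak counted as a promoter peak if it spans the TSS of a transcript of the gene or has its centre within 5 kb of one. Of these genes 9 carried the mark in both genotypes (21.4% of members, Wilson 95% interval 11.7 to 35.9), against 61.9% of all listed genes. The mark was listed in parental cells only at 7 (16.7%, 8.32 to 30.6), against 9.45% of all genes, and in knockout cells only at 1 (2.38%, 0.422 to 12.3), against 0.984%. Of the 16 genes marked in parental cells 43.8% (23.1 to 66.8) had no promoter peak in the knockout list, where 13.2% of all genes did. These intervals cover counting error only.

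Of the 7 genes without the mark in knockout cells 6 had the narrowest parental regions, and FGF11 was the exception. Width is the summed length of a gene's distinct promoter peaks, a measure of how far the called region reaches and not of how much of the mark is there. All 6 members with under 600 bp in parental cells had no promoter peak in the knockout list, where 58.9% of all such genes had none. Of 6 members with 600 bp to under 1200 bp 1, FGF11, had none (18.9% of all genes), and of 4 members with 1200 bp or more 0 (2.07%). The marked members had a median of 934 bp in parental cells, against 1552 bp over all marked genes.

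**Figure D1:**
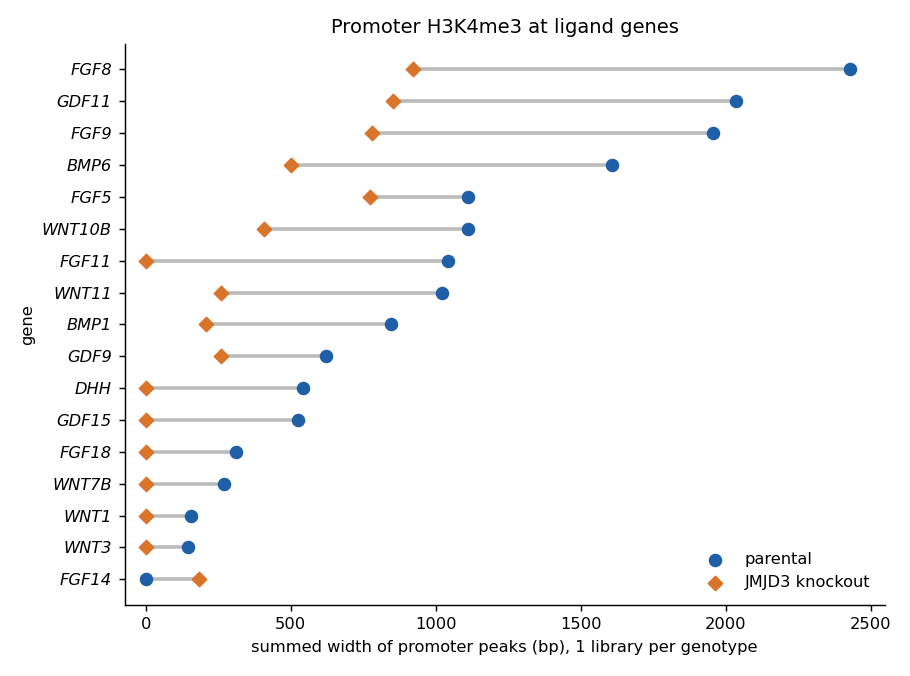
Summed width of promoter H3K4me3 peaks in bp at the 17 ligand genes with a promoter peak, parental (circles) and JMJD3 knockout (diamonds), 1 library each. Every gene except FGF14 lies lower in the knockout list, and 7 genes lie at 0 there.

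Among WNT genes, WNT1, WNT3 and WNT7B had narrow parental peaks and none in knockout cells. WNT1, a ligand of midbrain development, had 1 peak of 155 bp at 479 bp upstream of its TSS (chromosome 12, 49371680 to 49371834). WNT3, needed for the primitive streak, had 1 peak of 146 bp at 4014 bp upstream (chromosome 17, 44900068 to 44900213), a width that equals the narrowest peak of the whole list. WNT7B, a ligand of lung and kidney development, had 1 peak of 270 bp at 1848 bp from its TSS (chromosome 22, 46374722 to 46374991). With a window of 10 kb WNT1 was marked in both lists, through the peaks of its neighbour WNT10B.

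WNT10B and WNT11 kept a narrower mark. WNT10B, a ligand that promotes bone formation, had 1 parental peak of 1110 bp (chromosome 12, 49364472 to 49365581) and 2 knockout peaks of 237 and 171 bp inside it, a log2 ratio of -1.44. WNT11, which acts mostly without beta-catenin, had 3 parental peaks of 521, 176 and 326 bp from 75918179 to 75919939 on chromosome 11 and 1 knockout peak of 261 bp inside the first of them (log2 ratio -1.97). Of the other members of the family, WNT5B, WNT6, WNT8B and WNT10A had H3K4me3 between 5 and 20 kb from the TSS alone, and WNT5A and WNT16 had H3K27me3 alone.

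FGF genes with promoter H3K4me3 in both lists were FGF5, FGF8 and FGF9. FGF5, which ends the hair growth phase, differed least of the 9 genes: 2 parental peaks of 604 and 509 bp and 1 knockout peak of 773 bp (chromosome 4, 81187147 to 81187919), a log2 ratio of -0.53. Its TSS lay inside a peak in either genotype. Counted by TSS-spanning peaks alone, its region was 264 bp wider in knockout cells. FGF9, a ligand of gonad and lung development, had 4 parental peaks of 1955 bp and 3 knockout peaks of 781 bp (-1.32), with the parental peaks at 2640 and 3045 bp from the TSS absent from the knockout list.

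FGF8 lies beside another gene, and most of its mark lies nearer to that neighbour. FGF8, which patterns the limb and the brain, had 2428 bp in 3 parental peaks and 921 bp in 5 knockout peaks (-1.40). Of these, 2 parental and 4 knockout peaks lay nearer to the TSS of NPM3, a nucleoplasmin family gene, among them the widest parental peak (1846 bp, chromosome 10, 103541192 to 103543037), in place of which the knockout list had peaks of 174, 146 and 275 bp. The peaks nearest to FGF8 itself were 218 bp wide in parental cells, at -162 bp, and 149 bp in knockout cells, at 681 bp.

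FGF18 and FGF11 had promoter H3K4me3 in parental cells only. FGF18, a ligand of cartilage and bone, had 1 peak of 311 bp at 181 bp downstream of the TSS (chromosome 5, 170846693 to 170847003). FGF11 had 4 peaks of 1041 bp from 7338745 to 7340304 on chromosome 17, the widest region of the 7 genes. Of these 3 were nearest to the TSS of TMEM102, a transmembrane protein gene, and the remaining 224 bp lay 1399 bp upstream of FGF11. Within 5 Mb on either side of FGF11 the number of H3K4me3 peaks in knockout cells was 32.4% of the parental number, against 74.5% over the whole lists. The part of this in the result was not tested.

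FGF14 was the member with promoter H3K4me3 in knockout cells only. It had 1 peak of 183 bp (chromosome 13, 103052808 to 103052990), 1226 bp downstream of the TSS of NM_175929. At 6824 to 7592 bp downstream, nearest to the antisense RNA gene FGF14-AS2 and the intronic RNA gene FGF14-IT1, both lists had 2 peaks that overlap between genotypes, 353 and 279 bp wide in parental cells and 238 and 196 bp wide in knockout cells. With a window of 10 kb FGF14 was therefore marked in both lists, with 632 and 617 bp, and within 1 kb it was marked in neither.

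Of the BMP genes BMP6 and BMP1 had promoter H3K4me3, in both lists. BMP6, which controls iron balance through hepcidin, had a parental peak of 1410 bp that spans its TSS (chromosome 6, 7726318 to 7727727) and another of 197 bp, 1607 bp in all. The knockout list had 1 peak of 503 bp (7726354 to 7726856), which ends before the TSS at 7727010, a log2 ratio of -1.68. BMP1 had 3 parental peaks of 845 bp and 1 knockout peak of 209 bp, 445 bp from its TSS, the lowest ratio of the 9 genes (-2.02).

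GDF11 and GDF9 had promoter H3K4me3 in both lists, and GDF15 in parental cells only. GDF11, which patterns the axial skeleton, had 4 parental peaks of 2036 bp and 2 knockout peaks of 854 bp (-1.25), the widest of them 1116 and 697 bp at 761 and 808 bp downstream of the TSS. GDF9, an oocyte factor, had 3 parental peaks of 259, 210 and 153 bp and 1 knockout peak of 259 bp (-1.26). The GDF9 peak that spans the TSS in both lists lies 309 bp (parental) and 378 bp (knockout) from the TSS of UQCRQ, a gene of respiratory complex III, so distance does not assign it to 1 gene. Within 5 Mb of GDF9 the number of knockout H3K4me3 peaks was 47.4% of the parental number, and the part of this in the result was not tested. GDF15, a stress-induced cytokine, had 2 parental peaks of 196 and 328 bp at 1867 and 2193 bp downstream of its TSS.

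DHH, the hedgehog ligand of testis and nerve sheath, had 2 parental promoter peaks of 294 and 248 bp at 4751 and 2150 bp downstream of its TSS and none in knockout cells. Farther upstream, at 14030 to 16309 bp, both lists had peaks nearest to LMBR1L, a membrane receptor gene, 5 in parental and 3 in knockout cells.

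Among the 9 genes marked in both lists the median log2 width ratio was -1.40 (lowest -2.02, highest -0.53), against -1.01 over the 11190 genes marked in both. A region at least 2-fold narrower in knockout cells was seen at 8 of the 9, where 50.6% of all genes were, and 1 at least 2-fold wider at 0, where 0.384% were. With a window of 1 kb the narrower regions numbered 5 of the 9, against 49.2% of all genes, since FGF8 (218 and 149 bp), FGF9 (1303 and 781 bp) and WNT11 (521 and 261 bp) were then narrower by under 2-fold. For nearest genes only they numbered 7, without FGF8. Of all genes 11.2% had a lower ratio than BMP1 and 79.6% a lower ratio than FGF5, so each of the 9 values lies within the range of genes in general. Outside the neighbourhoods of FGF11, GDF9 and the X-linked FGF13 (32.7%), the number of knockout H3K4me3 peaks within 5 Mb of a member was between 64.6% (IHH) and 87.6% (BMP4) of the parental number.

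**Figure D2:**
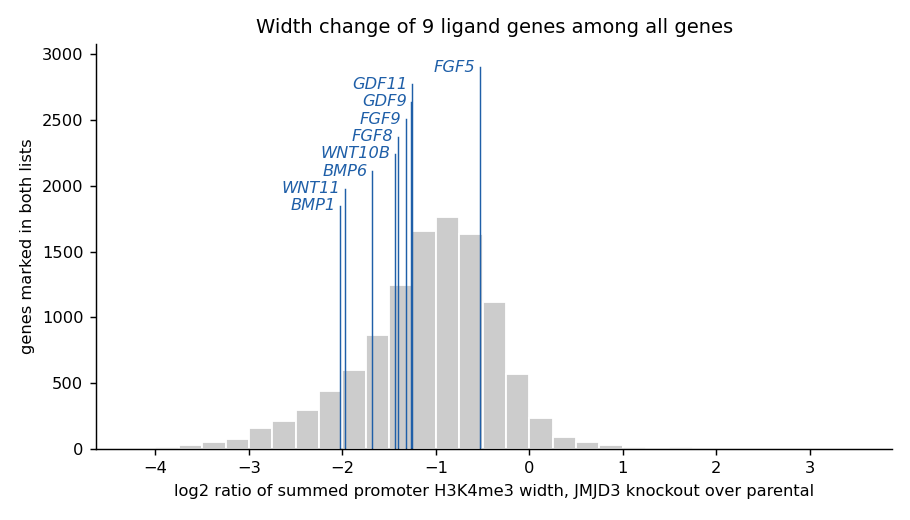
Histogram of the log2 ratio of summed promoter H3K4me3 width, knockout over parental, for the 11190 genes marked in both lists (grey, number of genes per bin of 0.25), with blue lines at the 9 ligand genes. All 9 lie below 0, and FGF5 alone lies above the median of -1.01.

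Some of these states depend on how far a promoter is taken to reach. With a window of 1 kb all 9 genes stayed marked in both lists, while of the 7 in parental cells only FGF18 and WNT1 kept their state and the other 5 were marked in neither. The share of parental genes without the mark in knockout cells was then 18.2% of members and 16.4% of all genes. It was 40% and 13.5% with a window of 10 kb, and 40% and 16.8% for nearest genes only. With peaks of at least 300 bp it was 63.6% and 30.3%, in lists of equal length 35.7% and 10.7%. For NM_ transcripts it was 43.8% and 12.3%. For TSS-spanning peaks the order was the opposite, 33.3% of members and 72.2% of all genes. Counting TSS-spanning peaks alone, FGF5 and GDF9 were marked in both lists and BMP6 in parental cells only.

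Across the whole 20 kb around the ligand genes the parental list held 77 H3K4me3 peaks covering 33106 bp at 29 genes and the knockout list 45 peaks covering 12904 bp at 20 genes. A peak within 20 kb was listed in both genotypes for 20 members (47.6%, against 74.3% of all genes), in parental cells only for 9 (21.4%, against 10.8%) and in knockout cells only for 0 (against 1.28%). By library the shares were 69% of members and 85.0% of all genes in parental cells, and 47.6% and 75.6% in knockout cells. The 9 genes were FGF7, FGF18, FGF19, FGF21, FGF22, GDF3, WNT3, WNT7B and WNT8B. FGF7, the keratinocyte growth factor, the hormone genes FGF19 and FGF21, and GDF3 and WNT8B each had 1 parental peak of 146 to 272 bp, at 7672 to 19287 bp from the TSS. At FGF22, a ligand of synapse formation, 4 parental peaks of 1453 bp in all were nearest to POLRMT, the mitochondrial RNA polymerase gene.

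Overlap between the genotypes was near that of all peaks. Of the 45 knockout peaks 42 overlapped a parental peak by at least 1 bp (93.3%, Wilson 95% interval 82.1 to 97.7), against 88.7% of all knockout peaks. With a reciprocal overlap of 50% the share was 31.1%, against 26.2% of all. In the other direction 34 of the 77 parental peaks overlapped one of the knockout list (44.2%, 33.6 to 55.3), against 52.6% of all parental peaks. The 3 knockout peaks without a counterpart were those of FGF8 at 681 bp, FGF14 at 1226 bp and WNT10A at 17675 bp from the TSS.

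Many of these peaks belonged to a neighbour by distance. A ligand gene had the nearest TSS for 40 of the 77 parental and 18 of the 45 knockout peaks, and another gene for 37 and 27. Knockout peaks nearest to a ligand gene numbered 45% of the parental ones and covered 33.1% of their length, and those nearest to another gene numbered 73% and covered 44.5%. Over all peaks the number was 74.5% and the covered length 47.4%. The neighbours with the most peaks were ARF3 beside WNT10B (3 parental and 7 knockout peaks), LMBR1L beside DHH and CD63 beside GDF11 (4 and 4). The 73% includes ARF3 and NPM3, where a wide parental peak (2213 bp at ARF3) stood against several narrow knockout peaks. The shares were not recomputed without these genes, so the difference between ligand genes and neighbours may rest on them. WNT6 and WNT10A shared 1 peak of 1480 bp in parental cells (chromosome 2, 219736028 to 219737507) that was 332 bp wide in knockout cells. Of the members with distant peaks alone, FGF6, a ligand of muscle, had 154 and 199 bp at 10113 and 10059 bp downstream, and GDF5, GDF7 and WNT5B had peaks at 11317 to 18078 bp, most of them nearest to other genes.

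H3K27me3 was listed within 20 kb of 18 of the 42 ligand genes, at 14 in parental and 11 in knockout cells. Those shares of 33.3% and 26.2% stand beside 12.9% and 13.0% of all genes. The mark was present in both genotypes at 7 (16.7%, against 7.74%), in parental cells only at 7 (16.7%, against 5.19%) and in knockout cells only at 4 (9.52%, against 5.27%). A gene is in the lists only through a peak of either mark, and 13 of the 42 members were listed for H3K27me3 alone, so the shares depend on that selection. At the promoter 3 genes had it in both genotypes (7.14%, 2.46 to 19, against 2.37%), 4 in parental cells only (9.52%, 3.77 to 22.1, against 2.74%) and BMP5 in knockout cells only (against 2.60%). Of the 7 promoters with the mark in parental cells 4 had none in the knockout list (57.1%, against 53.6% of all genes).

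**Figure D3:**
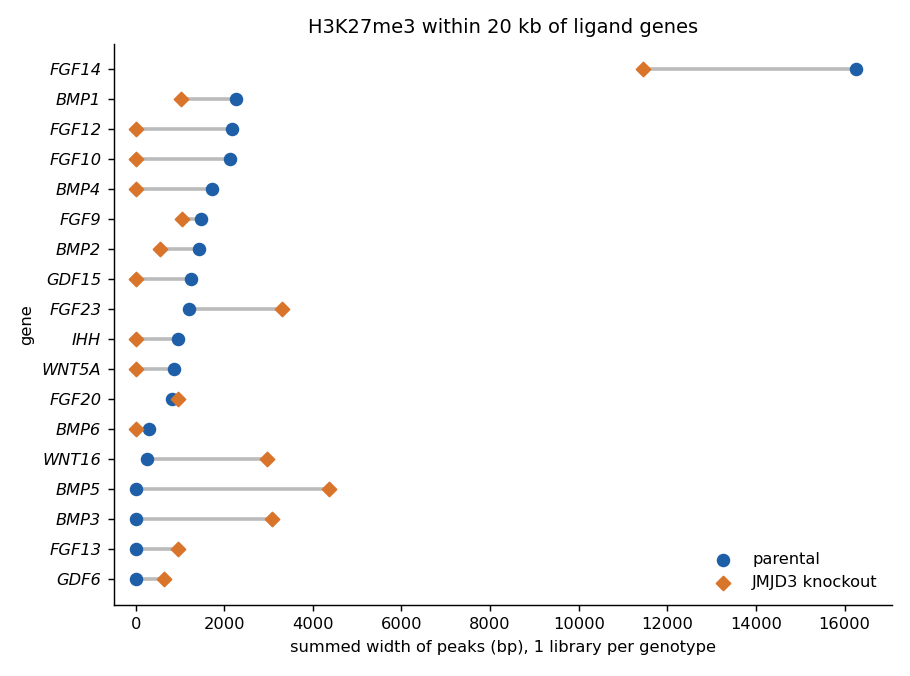
Summed width of H3K27me3 peaks in bp within 20 kb of the 18 ligand genes with a peak, parental (circles) and JMJD3 knockout (diamonds), 1 library each. FGF14 stands far to the right in both genotypes, and the other 17 genes lie at or below the 4374 bp of BMP5 in knockout cells.

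FGF14 carried the most H3K27me3 of all members in both genotypes, around 2 start sites. Around the upstream TSS (NM_175929, 103054124 on chromosome 13) the parental list had peaks of 424, 1503 and 2572 bp within 5 kb on either side of the TSS, which itself lay in a gap. The knockout list had 1 peak of 1935 bp there that spans the TSS (103053623 to 103055557). Around the downstream TSS (NM_004115, 102568995) the parental list had peaks of 952 and 5885 bp upstream and 1591 bp downstream, and the knockout list had 1 of 1677 bp upstream. In all, 10 parental peaks covered 16267 bp and 5 knockout peaks 11440 bp (log2 ratio -0.51). At the promoter the widths were 5451 and 1935 bp (-1.49), while within 1 kb the mark was listed in knockout cells only, so the direction depends on the window.

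FGF9 and FGF20 were the other members with promoter H3K27me3 in both lists, and their peaks overlapped between genotypes. FGF9 had 1 peak in each list, 1472 bp wide in parental cells and 1048 bp in knockout cells (-0.49), at 1529 and 1349 bp from the TSS. FGF20, a ligand of the inner ear and kidney, had 821 and 967 bp (0.24), at 1864 and 1739 bp from the TSS on chromosome 8. FGF23, the phosphate hormone of bone, had 1 overlapping peak in each list, of 1199 bp at 13129 bp downstream in parental cells and of 3307 bp at 14196 bp in knockout cells (1.46). WNT16, a ligand of bone and joint, had an overlapping peak of 258 bp at 7593 bp and of 445 bp at 7811 bp, and in knockout cells 1 more of 2512 bp at 17948 bp upstream.

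BMP genes differed in both directions. BMP4, which induces mesoderm, had 3 parental peaks of 296, 311 and 1118 bp at 2837 to 15688 bp upstream of its nearest TSS and none in knockout cells. BMP6 had 1 parental peak of 307 bp at 1840 bp upstream, and none in knockout cells. BMP5, a ligand of cartilage, had none in parental cells and 3 in knockout cells of 1229, 2427 and 718 bp, the widest centred 4846 bp upstream (chromosome 6, 55744009 to 55746435). BMP3, which opposes bone formation, had none in parental cells and 2 in knockout cells of 1943 and 1140 bp at 5878 and 18337 bp. BMP2, an inducer of bone, had 1 in each list, of 1436 bp at 8168 bp and of 552 bp at -11565 bp, which do not overlap. BMP1 had 2259 and 1026 bp, nearest to the TSS of LGI3.

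The remaining H3K27me3 genes had the mark in 1 genotype. FGF10, the mesenchymal signal for lung and limb buds, had 4 parental peaks of 1031, 463, 285 and 361 bp, of which the promoter peak at 4457 bp was nearest to FGF10-AS1. GDF15 had 1 parental peak of 1250 bp (chromosome 19, 18497408 to 18498657), centred 1065 bp downstream of its TSS. The nearest start, at 661 bp, was that of the microRNA gene MIR3189, which lies between the GDF15 TSS and the peak centre. FGF12 had 2 parental peaks of 1144 and 1022 bp at 8497 and 19324 bp upstream, IHH, the hedgehog ligand of growing cartilage, 1 of 957 bp nearest to CCDC108, and WNT5A, a ligand of planar polarity, 1 of 856 bp at 14651 bp. In knockout cells only, FGF13 had 1 peak of 962 bp at 15277 bp downstream and GDF6, a ligand of joints and eye, 1 of 642 bp at 8826 bp.

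Values close to the 5 kb limit bear on several of these states. Just inside it lie the promoter peak of BMP5 in knockout cells (4846 bp) and in parental cells 1 promoter peak each of FGF14 (H3K27me3, 4805 bp) and DHH (4751 bp). Just outside lie peaks of GDF11 (5028 bp), BMP3 (5878 bp), FGF10 (5900 bp) and FGF22 (5924 bp).

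The 29 parental and 19 knockout H3K27me3 peaks near the ligand genes covered 33113 and 30358 bp, 0.917 times as much in knockout cells, against 0.988 over all peaks. Without FGF14 the ratio was 1.12 (16846 and 18918 bp), so that gene sets its direction. Shared H3K27me3 peaks made up 37.9% of the parental ones (22.7 to 56), against 27.2% over the whole list, and 47.4% of the knockout ones (27.3 to 68.3), against 29.6%. The H3K27me3 peak centre closest to a TSS lay 1065 bp from it in parental cells and 465 bp in knockout cells, and the closest H3K4me3 centre 12 and 82 bp.

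Both marks were listed at the promoters of BMP6, FGF9 and GDF15 in parental cells (3 of 42, where 1.15% of all genes had both) and of FGF9 and FGF14 in knockout cells (2 of 42, against 0.840%). With a window of 1 kb no member had both marks in either genotype. In lists of equal length BMP6 had no H3K27me3. Both marks of GDF15 were nearest to MIR3189, which starts downstream of the GDF15 TSS, so counting nearest genes only GDF15 had neither. At FGF9 the parental marks overlapped by 167 bp, and in knockout cells they were 66 bp apart. At GDF15 they lay side by side with 79 bp between them in parental cells, and both were absent in knockout cells. At BMP6 the marks were 646 bp apart in parental cells, and H3K4me3 alone was listed in knockout cells. At FGF14 they were 632 bp apart in knockout cells. The lists pool all cells of a culture, so both marks at 1 gene may come from different cells or alleles, and a mark in fewer cells and less of it per cell cannot be told apart.

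**Figure D4:**
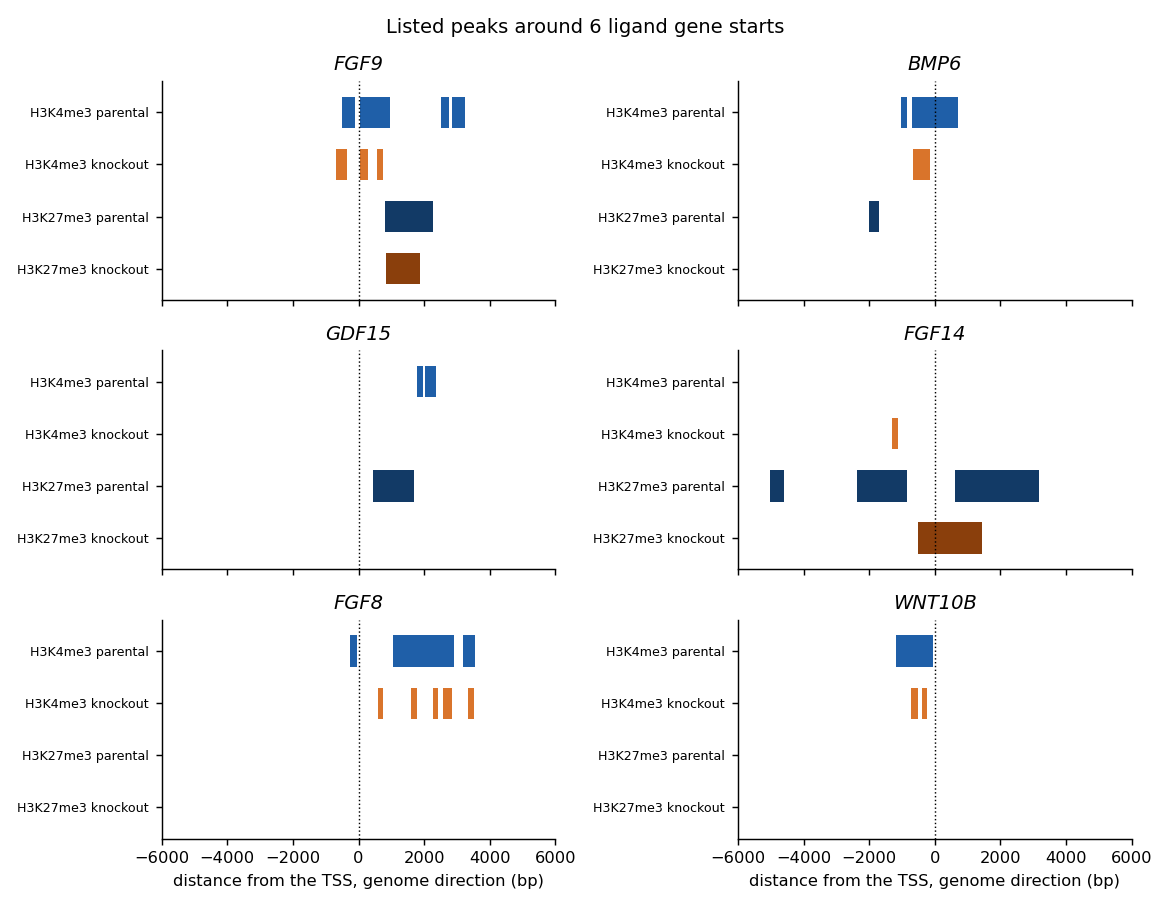
Listed peaks within 6 kb of the TSS (dotted line, 0) of FGF9, BMP6, GDF15, FGF14 (start of NM_175929), FGF8 and WNT10B, with 1 row for each mark and genotype and distance in bp in the direction of the genome. H3K4me3 bars are fewer or shorter in the knockout rows except at FGF14, and at FGF8 the wide parental bar corresponds to separate short knockout bars.

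Receptors, inhibitors and inner components of the same pathways were taken from 9 lists of 138 genes. Promoter H3K4me3 was listed in both genotypes at 64 of them, in the parental list alone at 17 and in the knockout list alone at 1, with a median log2 ratio of -0.98, against -1.01 over all genes. Of the 138 genes 103 are listed at all, and of these 62.1%, 16.5% and 0.971% had those states, beside 61.9%, 9.45% and 0.984% of all listed genes. For H3K27me3 the shares were 4.85%, 4.85% and 3.88%, beside 2.37%, 2.74% and 2.60%. The single lists are small, and their counts below are descriptions. Those counts are out of all genes of a list, also unlisted ones, and do not compare directly with the shares above. Among listed genes only, promoter H3K4me3 in both genotypes ran from 23.1% (WNT secretion and modulation) to 83.3% (WNT receptors and coreceptors). In the parental list alone it ran from 0% (WNT and FGF receptor lists) to 33.3% (TGF-beta family ligands). Of 19 WNT receptors and coreceptors 10 were marked in both lists and 0 in 1 list only. The widest in parental cells was LRP5, a coreceptor, with 2399 and 599 bp, and 6 of the other 9 had wider regions than LRP5 in knockout cells. LGR5, a receptor for R-spondin, was wider in knockout cells for both marks, with 444 and 739 bp of H3K4me3 and 2254 and 4490 bp of H3K27me3.

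Of 21 genes of WNT secretion and modulation 3 had promoter H3K4me3 in both lists and 4 in parental cells only. The 4 were NOTUM, which removes the WNT lipid (665 bp), KREMEN1, a receptor of the inhibitor DKK1 (476 bp), PORCN, the enzyme that adds the lipid (308 bp), and RNF43, which removes Frizzled from the surface (176 bp). The widest in both was KREMEN2, with 2522 and 1378 bp. H3K27me3 was listed at RSPO3 in parental cells (278 bp) and SFRP2 in knockout cells (444 bp). Of 15 intracellular WNT components 11 were marked in both lists, the widest being the kinase gene GSK3B (2716 and 1782 bp). The transcription factor genes TCF7L1 and TCF7L2 had H3K4me3 in parental cells only (654 and 260 bp) and H3K27me3 in knockout cells only (940 and 872 bp). Of all genes in their parental width classes 18.9% (600 bp to under 1200 bp) and 58.9% (under 600 bp) had no H3K4me3 in knockout cells. The share of all genes that differ in both marks in this way was not computed. AXIN2, a feedback inhibitor, had H3K4me3 of 146 bp, the narrowest width in the list, in parental cells only.

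Of 9 FGF receptor and adaptor genes 4 had promoter H3K4me3 in both lists and FGFR4 in knockout cells only (146 bp, the narrowest width in that list). The widest was FGFR1 (2512 and 2079 bp), which had 2593 bp of H3K27me3 in parental cells and none in knockout cells. FGFR2 had 392 bp of H3K27me3 in parental cells only. Of 14 FGF feedback and response genes 9 had H3K4me3 in both lists, led by the inhibitor SPRY2 (4563 and 3025 bp), and SPRY3, SPRED3 and IL17RD had it in parental cells only (476, 361 and 336 bp). None of these 14 had promoter H3K27me3.

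Of 20 BMP receptor, SMAD and ID genes 13 had promoter H3K4me3 in both lists, and SMAD5 (879 bp) and the coreceptor gene ENG (732 bp) in parental cells only. The inhibitor SMAD7 was the widest, with 3772 and 3427 bp. H3K27me3 was listed in both genotypes at the receptor genes ACVR2A (3440 and 1377 bp) and ACVR1 (2257 and 341 bp) and at ID3 (2444 and 2253 bp), and in knockout cells only at BAMBI, a decoy receptor (1220 bp). Of 14 BMP antagonists 4 had H3K4me3 in both lists, led by FST, follistatin (4326 and 2054 bp), which also had 448 bp of H3K27me3 in parental cells only. DAND5 had H3K4me3 in parental cells only (220 bp).

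Of 13 hedgehog pathway genes 7 had promoter H3K4me3 in both lists, the widest at the receptor gene PTCH1 (4728 and 2164 bp), and the coreceptor gene BOC in parental cells only (812 bp). H3K27me3 at CDON, another coreceptor, was 374 bp wide in parental cells and 4862 bp wide in knockout cells, and GLI3, a transcription factor, had 341 bp in parental cells only. Of 13 TGF-beta family ligands outside the symbol rule 3 had H3K4me3 in both lists, led by TGFB1 (2836 and 1111 bp). TGFB3 (905 bp), TGFB2 (529 bp) and INHBB (520 bp) had it in parental cells only, and none of the 13 had promoter H3K27me3.

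**Figure D5:**
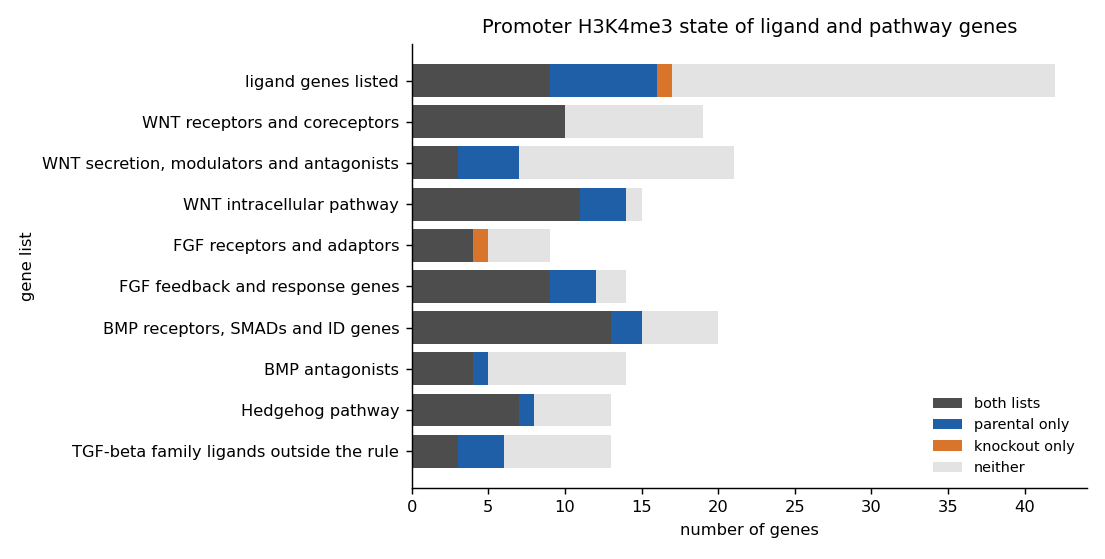
Number of genes with promoter H3K4me3 in both lists, in parental cells only, in knockout cells only or in neither, for the 42 ligand genes and 9 pathway lists. The grey share for neither is 25 of 42 for the ligand genes. Among the pathway lists it runs from 1 of 15 (intracellular WNT components) to 14 of 21 (WNT secretion and modulation). The ligand bar holds listed genes only, while the pathway bars also count unlisted genes as neither, so the grey shares do not compare directly.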

How the data were processed

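Chromatin from parental and JMJD3 KO HL-60 cells was immunoprecipitated for H3K4me3 and H3K27me3 and sequenced, 1 library each; 2 input libraries were not analysed here. Per the submitters' processing notes, the build was hg19 and the tools included MACS2 2.1.1, BWA 0.7.10 and SAMtools; their settings and the use of the inputs are not given in the sources used here. Per the file headers, each deposited line pairs a peak with a RefSeq transcript and gives start, end, a distance in bp and a score. The deposited score is a function of the distance and was not used. The TSS was taken as the peak centre minus the distance. Starts are printed counted from 1 on the reading that the lists count from 0, which could shift a position by 1 bp.

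Promoter states and widths were computed over all 18086 genes with Python 3.11.15 and pandas 2.3.3 and tested on simulated data. With 1 library a group no test was run. All 4 lists lack counts, so depth is unknown. Peaks were shared at an overlap of 1 bp. Alternatives were windows of 1 and 10 kb, TSS-spanning peaks, nearest gene, peaks of at least 300 bp, lists of equal length, NM_ transcripts and overlaps of 50%. The members and lists were chosen with earlier results of these data known. The text names every member with a promoter peak or an H3K27me3 peak, and from each pathway list up to 4 genes whose state differed and the widest in both lists. MPO and neighbouring genes were named after their values were seen. The RefSeq tables (GRCh38.p14) gave names, strands and sequences.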

Additional observations from a re-analysis of the deposited data

How the results depend on the processing

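Of the recomputed summary values 71 stayed within 1.5 times the reported count, ratio or interval, 38 moved and 1 reversed. With a window of 1 kb promoter H3K4me3 was in parental cells only at 2 members and in knockout cells only at 0, promoter H3K27me3 in both at 0 and in parental cells only at 0, and both marks at 0 in parental and 0 in knockout cells. With 10 kb the values were 0 for H3K4me3 in knockout cells only, 5 and 3 for H3K27me3 in both and in knockout cells only, and 5 for both marks in parental cells. With TSS-spanning peaks H3K4me3 was in both at 2, parental only at 1 and knockout only at 0, with a median log2 ratio of 0.30 from those 2 genes (reversed), H3K27me3 in both at 0 and parental only at 0, and both marks at 0 and 0. For the nearest gene only, H3K27me3 was in parental cells only at 2, and the peaks numbered 40 and 18 for H3K4me3 and 19 for parental H3K27me3. With peaks of at least 300 bp H3K4me3 was in both at 4 and knockout only at 0, both marks in knockout cells at 1, and H3K4me3 peaks numbered 36 and 15, with 33.3% of parental peaks shared. Lists of equal length gave 2 for H3K27me3 in parental cells only. When 50% of a peak had to be overlapped, 20.8% of parental and 80% of knockout H3K4me3 peaks and 26.3% of knockout H3K27me3 peaks were shared; with reciprocal overlap the shares were 18.2% and 31.1%, and 6.9% and 10.5% for H3K27me3. Width differences reversed at FGF5 (264 bp, TSS-spanning peaks) and FGF14 (H3K4me3 -15 bp within 10 kb; H3K27me3 1935 bp within 1 kb and for TSS-spanning peaks). Beyond what the windows and filters remove by construction, the cause was not tested. Regions at least 2-fold narrower in knockout cells are counted among the members marked in both lists under each setting. They numbered 5 of 9 within 1 kb (49.2% of all genes) and 0 of 2 for TSS-spanning peaks (50.2%). With peaks of at least 300 bp they numbered 3 of 4 (57.1%). The other gene counts here are of the 42 members, without the share of all genes beside them. No paired analysis was possible because each group holds 1 library.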
